A study of Homo sapiens with 2 samples.

Results

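The FGF pathway was examined here through 37 genes on the arrays of AGS.W and AGS.veh cells. The genes were the FGF ligands, their receptors, the klotho co-receptors, the carrier FGFBP1, the FRS docking proteins and the Sprouty and SPRED feedback inhibitors, and each was read by the probe sets that the platform annotation gives to that gene alone. By this rule 36 of the 37 genes were measured, with 86 probe sets, out of 19775 genes on the array. FRS2 was not analysed here. AGS is a human gastric adenocarcinoma cell line. AGS.W cells were made with a puromycin-selected lentivirus that carries the coding sequence of WTX (also named AMER1), a scaffold protein of the Wnt pathway, and AGS.veh cells are the negative control line. The question of the comparison was which transcripts differ when WTX is overexpressed in gastric cancer cells. RNA of each line was read on 1 Affymetrix U133 Plus 2.0 array, so there was no replicate, no test could be run, and every difference below is that between 2 cultures. Whether either line came from 1 clone is not given in the sources used here.

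FGFs are secreted proteins that bind the receptor tyrosine kinases FGFR1 to FGFR4 together with heparan sulfate on the cell surface. The active receptor phosphorylates the docking protein FRS2, which passes the signal to the RAS-ERK and PI3K/AKT pathways, and Sprouty and SPRED proteins, many of them induced by the signal itself, dampen the RAS-ERK branch. A group of intracellular relatives, the FGF homologous factors, is not secreted and is best known for binding voltage-gated sodium channels. In the stomach, FGFs of the mesenchyme act on the epithelium during development, and FGFR2 is amplified in a subset of gastric cancers.

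Of the 37 genes, FGF12 stood furthest apart between the lines. FGF12, an FGF homologous factor, was higher in AGS.W on each of its 3 probe sets, and by 5.15-fold and 3.05-fold on the 2 that passed the signal filter. FGFR4, a receptor, was 2.15-fold higher on the brightest of its 4 probe sets and less than 1.5-fold apart on the others. FGF2, a ligand that many cultured cells make, was lower in AGS.W on both of its probe sets, by 2.46-fold and 1.92-fold. SPRED1 and SPRED2, inhibitors of RAS-ERK signalling, were 1.76-fold and 1.62-fold lower, while FGFR3 and FGFBP1 were 1.72-fold and 1.55-fold higher. All other genes were less than 1.5-fold apart on the probe sets that passed the filter.

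The bases upstream of the annotated starts of FGF12, FGF2 and FGFR4 are shown because these were the only genes of the pathway with a probe set that passed the filter and was at least 2-fold apart. They are the 250 bases before each start in RefSeq for GRCh38.p14, where 29 of the 37 genes have an entry. FGF12 and FGFR4 each have 2 starts there, 318 kb and 2.63 kb apart, and the probe sets were not assigned to a start. Capitals mark the motifs searched on both strands, 6 in number and spelled out after the windows. All windows are written from 5′ to 3′ toward the start.
FGF12, upstream start (chr3:192727542-192727791, minus strand): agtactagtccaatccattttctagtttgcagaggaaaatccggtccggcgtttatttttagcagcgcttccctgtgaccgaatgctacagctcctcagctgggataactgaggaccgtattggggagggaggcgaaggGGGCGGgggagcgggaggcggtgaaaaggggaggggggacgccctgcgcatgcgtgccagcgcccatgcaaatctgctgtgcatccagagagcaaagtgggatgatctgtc
FGF12, downstream start (chr3:192409598-192409847, minus strand): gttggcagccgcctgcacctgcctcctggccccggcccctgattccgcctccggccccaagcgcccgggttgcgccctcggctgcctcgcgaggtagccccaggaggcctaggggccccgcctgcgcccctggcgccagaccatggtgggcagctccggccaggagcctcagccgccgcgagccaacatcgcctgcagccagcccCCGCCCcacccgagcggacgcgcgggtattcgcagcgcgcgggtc
FGF2 (chr4:122826581-122826830, plus strand): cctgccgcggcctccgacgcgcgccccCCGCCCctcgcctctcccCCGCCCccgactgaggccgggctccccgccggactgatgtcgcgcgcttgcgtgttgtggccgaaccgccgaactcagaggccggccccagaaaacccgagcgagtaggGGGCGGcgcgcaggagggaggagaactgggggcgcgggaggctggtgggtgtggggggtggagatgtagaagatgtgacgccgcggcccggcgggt
FGFR4, upstream start (chr5:177086665-177086914, plus strand): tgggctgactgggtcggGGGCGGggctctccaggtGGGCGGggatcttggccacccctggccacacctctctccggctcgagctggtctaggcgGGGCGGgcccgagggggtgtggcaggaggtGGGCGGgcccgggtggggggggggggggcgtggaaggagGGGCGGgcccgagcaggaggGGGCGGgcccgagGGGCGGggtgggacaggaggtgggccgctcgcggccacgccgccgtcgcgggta
FGFR4, downstream start (chr5:177089300-177089549, plus strand): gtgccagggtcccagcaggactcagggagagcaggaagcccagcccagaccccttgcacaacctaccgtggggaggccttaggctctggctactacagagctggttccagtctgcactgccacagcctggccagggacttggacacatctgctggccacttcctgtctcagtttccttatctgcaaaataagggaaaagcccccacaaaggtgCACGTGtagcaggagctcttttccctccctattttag

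These windows differ in base composition. The window of FGF2 had 75.2% G and C bases, those of FGF12 had 57.6% and 77.2%, and those of FGFR4 had 79.6% and 57.2%, against a median of 58% over 35116 such windows. The GC box, GGGCGG, which was found in 42.6% of all windows, occurred 3 times upstream of FGF2, 7 times before the upstream start of FGFR4 and 1 time at each start of FGF12. The downstream start of FGFR4 had no GC box and 1 E-box, CACGTG, a motif found in 6.34% of all windows. The other motifs were found in none of the 5 windows. They were the TATA box, TATAAA, which occurred in 10.7% of all windows, the ETS motif, CCGGAAG, in 8.52%, the AP-1 motif, TGANTCA, in 6.57%, and the TCF/LEF motif, ATCAAAG, in 2.26%. A match is a run of letters and no measure of binding, and the arrays give no value for these windows.

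The values were read as log2 signals, on which a difference of 1 is 2-fold. The scale is not stated in the sources used here and was taken from the range of the values, and every fold rests on it. Each difference is given as AGS.W minus AGS.veh. A probe set passed the signal filter when it reached the median of its array, 4.02 in AGS.W or 4.03 in AGS.veh, on at least 1 array, since dimmer signal may be background. Of all probe sets 28504 of 54613 passed, and of the 86 of the FGF pathway 32 did, which represent 21 genes. Signals of different probe sets were not compared with each other, because probes differ in how well they bind. AMER1 itself read 3.70 in AGS.W against 3.86 in the control on its only probe set. As the vector holds the coding sequence alone and the position of the probes is not settled here, this value does not check the labels. The extraction text of the labels names a brain tissue, in contrast to their cell line field. Of 8 epithelial markers 7 passed the filter, with KRT18 at 10.87 in AGS.W against 11.17 in AGS.veh. Of 4 measured leukocyte markers 1 passed, CD3E at 4.39 and 4.42. Of 11 measured markers of neurons and glia 6 passed, the brightest of them GAD1 at 7.06 and 7.11 and MBP at 6.10 and 6.19, while GFAP and AQP4 lay below both medians. For comparison with these marker counts, 64.8% of all genes passed the filter.

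Counted over probe sets, 3 of the 32 past the filter were at least 2-fold higher in AGS.W and 1 was at least 2-fold lower. Among all probe sets past the filter these shares were 1.9% and 1.89%. Counted as genes, with the probe set of highest mean signal for each, 2 of 21 were at least 2-fold higher and 0 lower, where 1.83% and 1.94% of all 12811 genes past the filter were. The count of 0 lower comes from FGF2, whose brightest probe set lay just under the threshold, at 1.92-fold, while FGFR4 lay just over it, at 2.15-fold. At the lower threshold of 1.5-fold, 5 probe sets lay higher in AGS.W and 4 lower, against 7.03% and 7.19% of all probe sets, and 4 genes were higher and 3 lower, against 6.64% and 7.37% of all genes. The 3-fold threshold left 2 probe sets on the higher side and 0 on the lower, against 0.389% and 0.386%, and 1 gene, FGF12, was higher and 0 were lower, against 0.437% and 0.445%. The median difference of the 21 genes was 0.06, and that of all genes past the filter was -0.01. The genes of the pathway thus lay on either side of 0, with 11 higher and 10 lower.

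**Figure D1:**
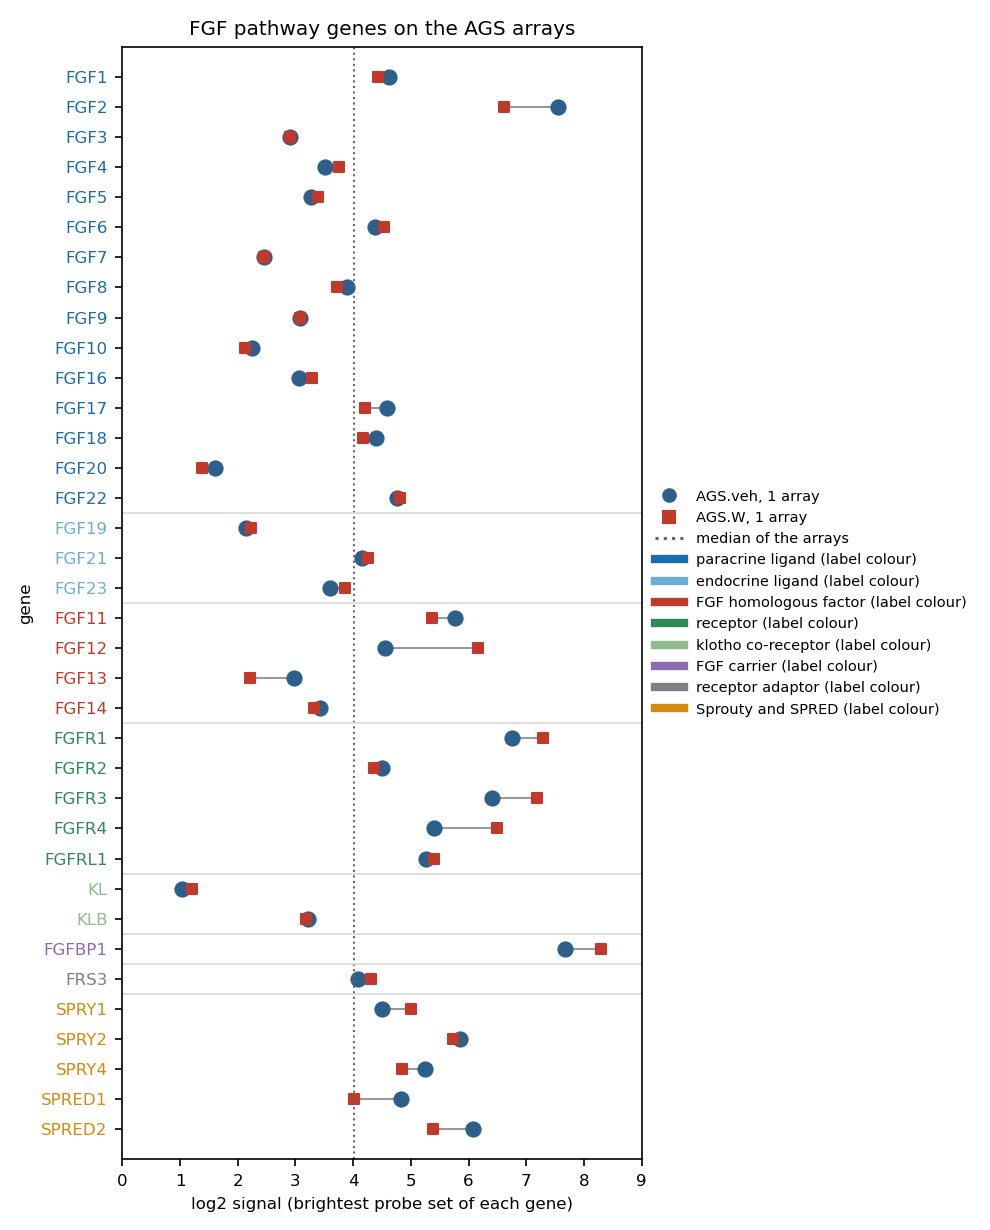
Log2 signal (horizontal axis) of the 36 measured genes of the FGF pathway (vertical axis, label colour for the role) on the 2 arrays, with AGS.veh as circles, AGS.W as squares and each gene shown by its brightest probe set. The longest lines are those of FGF12, from 4.56 to 6.17, and FGFR4, from 5.39 to 6.50, and genes left of the dotted median line are dim on both arrays.

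Of the paracrine ligands, which act near the cell that secretes them, only FGF2 had a probe set at least 2-fold apart. Of these 15 genes, 6 passed the filter, 2 of them higher and 4 lower in AGS.W, with a median difference of -0.21. Probe set 204421_s_at of FGF2 read 6.61 in AGS.W and 7.55 in AGS.veh, a difference of -0.94. Probe set 204422_s_at read 5.21 and 6.50, a difference of -1.30. Both probe sets of FGF2 were thus above the medians of both arrays and lower in AGS.W, and their mean difference was -1.12. Among all 28504 probe sets past the filter, the difference of 204422_s_at was the 229th from the lowest and that of 204421_s_at the 632nd. Both are of the _s_at type, whose probes match several transcripts, so no probe set of another type checks them. FGF2 is also made by fibroblasts, and of 10 fibroblast and mesenchymal markers 5 passed the filter, 3 higher and 2 lower. PDGFRB, at 4.08 in AGS.W and 5.06 in AGS.veh, was lower as FGF2 was. COL1A1, at 7.89 and 6.95, was higher on its brightest probe set, but its 3 others past the filter ran from -0.34 to 0.62. THY1 read 4.51 and 4.24, and PDGFRA read 4.13 and 3.59, the latter below the array median, so both were higher in AGS.W. DCN read 4.14 and 4.28, COL3A1 was below both medians, and the part of these genes in the FGF2 result was not tested. Fewer cells that make a transcript and less of it per cell cannot be told apart in these bulk RNA samples.

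The other paracrine ligands past the filter were close to each other in both lines. FGF17, a relative of FGF8, read 4.21 in AGS.W and 4.59 in AGS.veh, a difference of -0.37. FGF18, a ligand known from bone and cartilage growth, read 4.18 and 4.40, and 4 of its 5 dimmer probe sets were also lower in AGS.W. FGF1, which binds all FGF receptors, read 4.43 and 4.62. The remaining 2 genes leaned the other way. FGF6 read 4.54 and 4.38, and FGF22 read 4.82 and 4.76, with dimmer probe sets at 0.20 and -0.32. For the other 9 genes, FGF3, FGF4, FGF5, FGF7, FGF8, FGF9, FGF10, FGF16 and FGF20, no probe set passed. Over the 24 dim probe sets of paracrine ligands the signals ran from 0.55 to 3.95 and the differences from -0.32 to 0.38. FGF7 and FGF10, the mesenchymal ligands of the epithelial form of FGFR2, were among them, with 2.45 on both arrays for FGF7 and 2.13 and 2.25 for FGF10.

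The endocrine ligands, which circulate and need a klotho protein to bind their receptors, were near or below the array medians. FGF21, a hormone of fasting and metabolic stress, read 4.26 in AGS.W and 4.16 in AGS.veh, a difference of 0.09. FGF19, which the intestine secretes to restrain bile acid synthesis, read 2.24 and 2.14. FGF23, a bone hormone that controls phosphate, read 3.86 and 3.60. Neither co-receptor passed the filter. KLB, the partner of FGFR4 for FGF19, read 3.19 and 3.21 on its brighter probe set and 2.09 and 1.84 on the other. KL read 1.21 and 1.03. Of these 5 genes FGF21 alone passed the filter, and its signals lay just above the medians.

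The FGF homologous factors included the most different gene of the pathway. FGF12 was read by 3 probe sets. Probe set 207501_s_at read 6.42 in AGS.W and 4.05 in AGS.veh, a difference of 2.37. Probe set 238521_at read 6.17 and 4.56, a difference of 1.61, and is not of the _s_at or _x_at types that match several transcripts. Probe set 214589_at, below both medians, read 3.91 and 3.49. All 3 probe sets of FGF12 were thus higher in AGS.W, and the mean over them was 1.46. Among all probe sets past the filter, the differences of the first pair were the 22nd and the 101st from the highest. In AGS.veh the signal of 207501_s_at lay just above the array median, so its fold is open to background there. Of the other members of this family, FGF11 alone had a probe set past the filter, and that probe set was lower in AGS.W. FGF11 read 5.36 and 5.76, a difference of -0.40, with its dimmer probe set at 0.22. FGF13 read 2.21 and 2.98, the lowest difference of any dim probe set of the pathway at -0.77, but both signals were below the medians. The 5 probe sets of FGF14 were all dim, with differences from -0.11 to 0.37 and a mean of 0.12.

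FGF12 is best known from neurons and heart muscle. Of the 6 markers of neurons and glia past the filter 4 were higher and 2 lower in AGS.W, and 1 was at least 2-fold higher, SNAP25, with 5.15 against 3.57, the latter below the median of its array. With that signal set to the median, SNAP25 was at least 2.18-fold higher on this probe set. Its other probe set past the filter had a difference of 0.49, and the mean over all its probe sets was 0.85, under 2-fold. The summed log2 signal of the 11 markers, those below both medians included, came to 47.1 for AGS.W and 43.4 for AGS.veh. This gap includes SNAP25, at 1.575 with its control signal as read. It also includes the markers below both medians, from SYT1 and NEFL at 0.1993 to GFAP at 0.47. All of these dim markers were higher in AGS.W, may be background, and differed by -0.004 when set to the medians. For epithelial markers the sums were 59.9 and 60.1, and for fibroblast and mesenchymal ones 37.4 and 37.5. Near-equal sums can hold opposed differences, here EPCAM at 0.92 and KRT7 at -0.88, and COL1A1 at 0.94 and PDGFRB at -0.98. Endothelial markers summed to 21.0 and 20.5, and leukocyte markers to 11.8 and 11.5. The part of the neuron and glia markers in the FGF12 result was not tested. Of the sodium channel genes and the scaffold MAPK8IP2, which FGF homologous factors bind, 12 of 14 listed genes were measured and only MAPK8IP2 passed the filter, at 5.88 and 5.63. All 11 measured sodium channel genes lay below both medians.

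**Figure D2:**
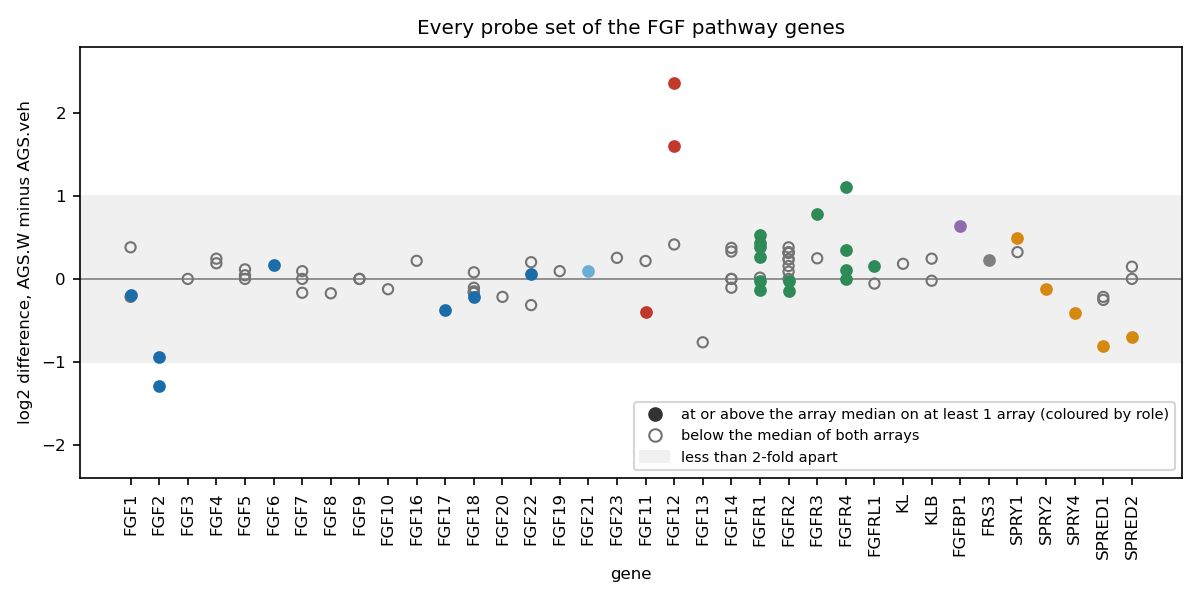
Log2 difference AGS.W minus AGS.veh (vertical axis) of each of the 86 probe sets, by gene (horizontal axis). Filled points passed the signal filter and open points are dim on both arrays. FGF12 has filled points at 2.37 and 1.61, FGF2 at -0.94 and -1.30, and the 4 points of FGFR4 spread from 0.00 to 1.11.

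All 5 receptor genes passed the filter, 4 higher and 1 lower in AGS.W, with a median difference of 0.53. FGFR4, the receptor through which FGF19 signals in the liver, was at least 2-fold apart on 1 probe set. Probe set 204579_at read 6.50 in AGS.W and 5.39 in AGS.veh, a difference of 1.11 and the 396th from the highest. Probe set 1554962_a_at read 4.91 on both arrays, with identical values. Probe sets 1554961_at and 211237_s_at differed by 0.35 and 0.11, and in AGS.veh both lay below the median. The probe sets of FGFR4 thus disagreed in size, and as their mean the gene was 0.39 higher, which is less than 2-fold. Which of them reads the main transcript in AGS cells was not tested.

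FGFR3 was the next receptor by size of difference. It read 7.18 in AGS.W and 6.40 in AGS.veh on 204379_s_at, a difference of 0.78, and its dim probe set had 0.25. FGFR1 was read by 7 probe sets, 6 of them past the filter. The brightest, 211535_s_at, read 7.29 and 6.76, a difference of 0.53, and the 6 ranged from -0.13 to 0.53, with 4 higher and 2 lower. FGFR2, the receptor that is amplified in some gastric cancers, had 11 probe sets, of which only 2 passed. Probe set 208229_at read 4.36 and 4.50 and 208234_x_at read 4.23 and 4.25. The 9 dim probe sets of FGFR2 had differences from 0.00 to 0.38, 8 of them higher in AGS.W and 1 identical, so the sign for FGFR2 depended on the probe set. FGFRL1, a receptor without a kinase domain, read 5.41 and 5.25.

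FGFBP1, a secreted carrier that releases FGFs such as FGF2 from the matrix, read 8.30 in AGS.W and 7.67 in AGS.veh on its only probe set, a difference of 0.64. It was thus higher in the line in which FGF2 itself was lower. FRS3, a docking protein related to FRS2, read 4.30 and 4.08.

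Of the 5 Sprouty and SPRED genes, which all passed the filter, 4 were lower and 1 was higher in AGS.W, with a median difference of -0.41 and none at 2-fold. SPRED1 read 4.02 in AGS.W and 4.84 in AGS.veh on 226837_at, a difference of -0.82. The signal in AGS.W lay just under the median of that array, and the 2 dim probe sets of SPRED1 were also lower, by -0.22 and -0.25. SPRED1 was thus lower on each of its probe sets, although the mean over them was -0.43. SPRED2 read 5.38 and 6.08 on 212458_at, a difference of -0.70, while its 2 dim probe sets had 0.00 and 0.15. SPRY4 read 4.84 and 5.25, a difference of -0.41, and SPRY2 read 5.72 and 5.85, a difference of -0.13. SPRY1 was the exception. It read 4.997 and 4.51 on 230212_at, a difference of 0.49, and its dim probe set had 0.32. The Sprouty genes therefore did not share a direction on these arrays, whereas SPRED1 and SPRED2 were both lower on their brightest probe sets.

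**Figure D3:**
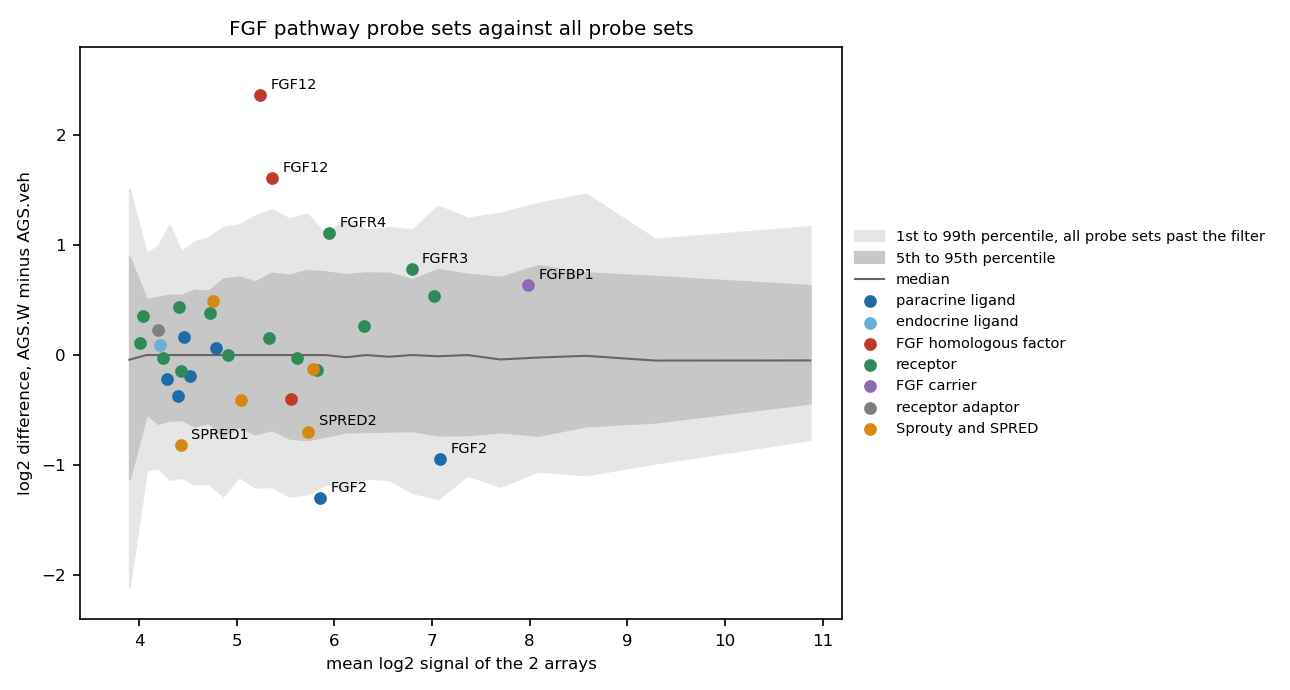
Log2 difference AGS.W minus AGS.veh (vertical axis) against the mean log2 signal (horizontal axis) for the 32 probe sets of the FGF pathway past the filter, coloured by role, over bands that hold the middle of all probe sets of like signal. Both points of FGF12 and 1 of the 4 points of FGFR4 lie above the 99th percentile of probe sets of like signal, 1 point of FGF2 lies below the 1st, and 25 of the 32 points lie between the 5th and the 95th.

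Seen against probe sets of like signal, in 25 bins of about 1140 each, most of the pathway fell among the others. Of its 32 probe sets, 25 lay between the 5th and 95th percentiles of their bin. FGF12 on both probe sets and FGFR4 on 204579_at lay above the 99th percentile, which was 1.09 in the bin of FGFR4. FGF2 lay below the 1st percentile on 204422_s_at, at -1.30 against -1.17, and below the 5th on 204421_s_at. FGFR3 lay above the 95th percentile and SPRED1 below the 5th. These positions describe 2 arrays and are no test of the lines.

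Genes around the pathway were described through 7 lists, among them those of the FGF homologous factor partners given above. The adaptors and kinases from receptor to ERK were close in both lines. Of 22 listed genes 17 were measured, all past the filter. On the brightest probe set of each, 12 were higher, 2 lower and 0 at 2-fold, with a median difference of 0.08. As means over all their probe sets GRB2, SOS1, SHC1 and PTPN11 turned lower, at -0.11, -0.14, -0.09 and -0.06, and ARAF turned higher, at 0.03. The adaptor GAB2 read 6.94 in AGS.W and 6.43 in AGS.veh. HRAS, 1 of the RAS proteins, read 7.56 and 8.05. NF1, a RAS inhibitor, read 4.24 and 3.64, but the latter lay below the array median, and with it set to that median the difference was 0.21.

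Genes known to respond to ERK signalling went both ways. Of 14 past the filter 8 were higher and 6 lower, with a median of 0.15. FOS, an immediate early transcription factor, read 9.21 in AGS.W and 7.88 in AGS.veh, a difference of 1.33. Cyclin D1 (CCND1) read 6.66 and 8.46, a difference of -1.81, with its other probe set at -1.91. ETV5, an ETS factor downstream of FGF receptors, read 6.69 and 5.69 and lay just under 2-fold, at 1.998-fold, with its other probe sets past the filter between 0.25 and 0.88. IER3 and EGR1 were higher by 0.94 and 0.77. DUSP6, the ERK phosphatase often read as a sign of FGF signalling, had 6.38 and 6.32. The genes of this list respond to many growth factors and not to FGFs alone.

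Heparan sulfate genes, which make, trim or carry the sugar chains that FGFs need for binding, leaned lower in AGS.W. The chain enzymes and the core proteins that carry the chains each held genes of both directions. Of 20 past the filter 13 were lower and 6 higher, with a median of -0.25, and 1 was at least 2-fold lower. SULF2, a sulfatase that removes sulfate groups from these chains, read 5.18 in AGS.W and 6.28 in AGS.veh, a difference of -1.11, with its other probe set at -0.77. EXT1, a polymerase of the chains, read 7.62 and 8.61, a difference of -0.98, with -1.33 on another probe set. EXTL2 and NDST1 had -0.73 and -0.62. For comparison, 50.5% of all genes past the filter were lower and 45.7% higher.

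Among other proteins that bind FGFs or their receptors, 9 genes passed the filter, 6 of them lower and 2 higher, with a median of -0.36. N-cadherin (CDH2), which binds FGFR1, read 5.15 in AGS.W and 6.46 in AGS.veh, a difference of -1.31, but its other probe set past the filter had -0.17. FIBP, FGFBP3 and FLRT3 had -0.47, -0.45 and -0.38. Of the factors that splice FGFR transcripts, 5 passed, all lower on their brightest probe sets and 0 at 2-fold. Of all genes past the filter 50.5% were lower. The 5 ran from TIA1 at -0.53, RBFOX2 at -0.34 and KHDRBS1 at -0.18 to PTBP2 at -0.01. Other probe sets past the filter ran from -0.12 to 0.33 for KHDRBS1 and from -0.40 to 0.02 for RBFOX2. Those of PTBP1 ran from 0.00 to 0.10 and those of TIA1 from -0.36 to 0.00. ESRP1, which sets the epithelial form of FGFR2, was dim, with 2.90 on both arrays.

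Genes of the endocrine FGF axis split evenly, with 5 higher and 5 lower of 10 past the filter and a median of -0.02. GALNT3, an enzyme that protects FGF23 from cleavage, read 5.05 in AGS.W and 2.94 in AGS.veh. The control signal lay below the array median, and with that signal set to the median GALNT3 was at least 2.03-fold higher. DDIT3, a stress factor downstream of ATF4, read 8.79 and 6.72, a difference of 2.07. The vitamin D receptor VDR read 7.70 and 8.82, a difference of -1.12, and its other 3 probe sets past the filter had -1.34 to -0.30. PPARA, CYP27B1 and PPARGC1A had differences of 0.72, -0.69 and 0.55. FGF23 and FGF21 themselves stood near or below the medians, as given above.

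**Figure D4:**
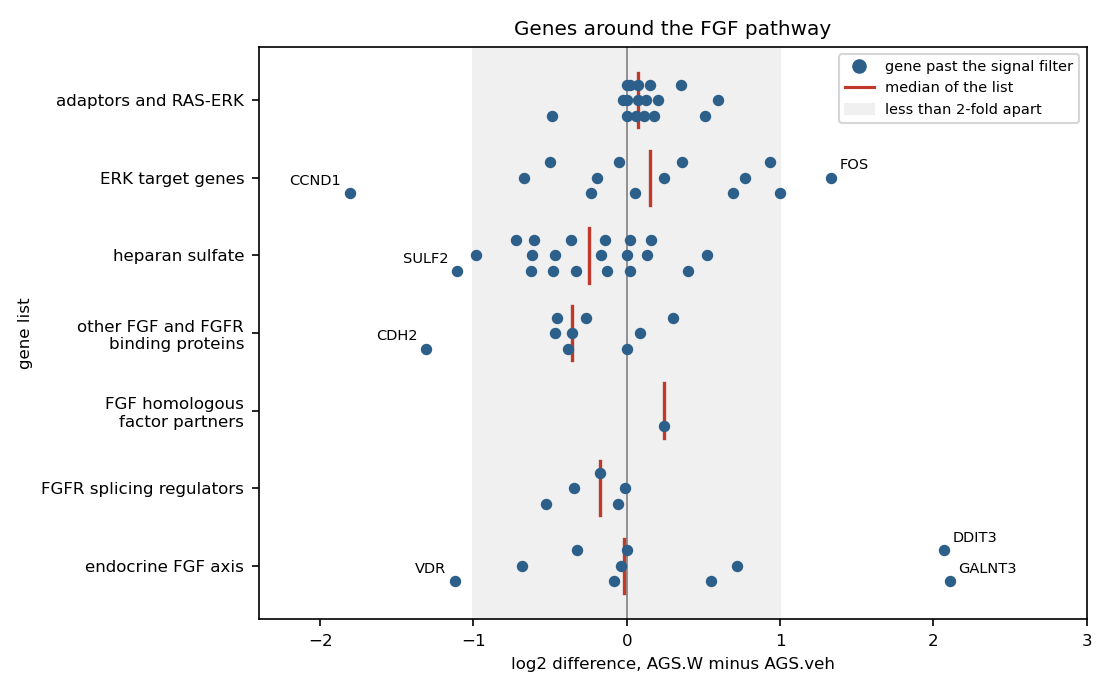
Log2 difference AGS.W minus AGS.veh (horizontal axis) of the genes past the filter in 7 lists around the FGF pathway (vertical axis), 1 point for each gene, with the median of each list as a bar and the region under 2-fold shaded. The adaptors lie within 0.60 of 0, while CCND1 at -1.81, DDIT3 at 2.07 and GALNT3 at 2.11, whose control signal was dim, lie outermost.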

How the data were processed

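Total RNA of AGS.W and AGS.veh cells was hybridised to Affymetrix U133 Plus 2.0 arrays, 1 for each line. The deposited table has 1 value per probe set, made by the authors with RMA and MAS5 per the labels, without role or version. The deposited values were taken to be log2 signals because they run from 0.306 to 13.1 with nearly equal quartiles on both arrays, and the scale itself is not stated. Both columns had nearly equal medians and were used without renormalization. After 62 control probe sets were left out, 54613 remained, of which platform annotation of 2016 gives 41091 to 1 gene, 1801 to several and none to 11721. Probe sets with several genes, among them 1 of FGF7, were not used. Symbols were updated through RefSeq gene identifiers. A gene took the probe set of highest mean signal. The fold threshold of 2 was taken from the study's methods, whose FDR cannot be computed from 1 array per line. The number of arrays limits the precision.

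The members and lists were chosen with earlier results of these data known. Every member was named, and of each related list the genes at least 2-fold apart and up to 3 more of largest difference. DUSP6, PTBP1, PTBP2, ESRP1, GRB2, SOS1, SHC1, PTPN11 and ARAF were named outside this rule after their values were seen. So were SNAP25 and other markers. Members just outside the threshold were given too. Alternatives were 3 scalings (median centring, quantile normalization and lowess with span 0.3), fold thresholds of 1.5 and 3, stricter and absent signal filters, other summaries of a gene, and dim signal set to the array median. The counting was tested on simulated arrays. The work was done in Python 3.11.15 with pandas 2.3.3, numpy 2.4.6, matplotlib 3.10.9 and statsmodels 0.14.6.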

Additional observations from a re-analysis of the deposited data

How the results depend on the processing

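No paired analysis was possible because the labels give no replicate numbers and only 1 array stands for a line. For the same reason none could be omitted in turn. Median centring, quantile normalization and the lowess curve left the numbers of genes and probe sets of the FGF pathway at 2-fold as they were and moved no gene by more than 0.03, as did the other signal filters for these counts. When a gene was taken as the mean over its probe sets, all of them or those past the filter, 1 gene was higher (FGF12) and 1 lower (FGF2), since FGFR4 came to 0.39 and FGF2 to -1.12. With the probe set of largest difference, 2 were higher and 1 lower. With 1.5-fold as threshold the probe sets gave 5 higher against 4 lower, the genes 4 against 3. At 3-fold, 1 gene was higher and 0 probe sets were lower. Of 76 genes past the filter in the related lists, 3 were at least 2-fold higher, GALNT3 among them, and 4 lower, where 1.83% and 1.94% of all genes were. These became 9 against 11 at 1.5-fold (6.64% and 7.37% of all genes) and 2 against 1 at 3-fold (0.437% and 0.445%). ETV5 crossed 2-fold under each scaling, which made 4 higher, and GALNT3 failed the filters of the median on both arrays and of the upper quartile, which left 2. Of 267 alternative values of the 36 genes, 254 stayed within the robust spread of probe sets of like signal and none of the rest came from a scaling. No gene at least 2-fold apart turned sign. Of those less far apart, FGF1, FGF14, FGF22, FGFR2 and KLB took the opposite sign with the probe set of largest difference, which was dim for each. All of these but FGF1 also did so as the mean over all probe sets. FGFR2 then came to 0.17, FGF14 to 0.12, KLB to 0.11 and FGF22 to -0.02. FGF2 and 5 other genes have no probe set outside the _x_at and _s_at types, and gave no value without them.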

Other observations

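The size of many small differences recurred across unrelated probe sets. Compared at 4 decimals, a difference of 0.1993 was carried by 806 probe sets, 0.2166 by 756 and 0.1825 by 747, in either direction, and 6900 probe sets had identical values on both arrays. Of the probe sets with unequal values, 16.1% of those past the signal filter and 65.1% of the dim ones had a size that more than 50 probe sets carried. In the FGF pathway this held for 7 of 31 past the filter and for 31 of 45 dim ones, and 10 of the 86 probe sets had identical values. The sizes of the differences of FGF12, FGF2, FGFR4, FGFR3, FGFBP1, SPRED1 and SPRED2 on their probe sets named above as 1.5-fold apart or more were each carried by at most 4 probe sets. KL, at 0.18, carried the last of the 3 sizes named. The cause was not tested.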
